A study of Homo sapiens with 12 samples.

Results

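The genes described here are 10 members of the unfolded protein response, the program by which a cell adjusts the folding capacity of its endoplasmic reticulum (ER): the stress sensors ERN1 and ATF6, the transcription factor XBP1, the luminal chaperones and cofactors HSPA5, HSP90B1, CALR, SDF2L1 and CRELD2, the disulfide isomerase PDIA4, and HERPUD1, a protein of ER-associated degradation. They were chosen by name from the 58735 genes of a gene count table, with earlier results of these data known. All 10 were among the 20821 genes with enough counts to be tested. RNA was sequenced from K562, a human erythroleukemia cell line driven by the BCR-ABL1 kinase, which nilotinib inhibits, and which starts to make hemoglobin when given hemin. The 12 libraries formed 4 groups of 3 biological replicates: mock DMSO (vehicle, no hemin), mock nilotinib (0.1 μM, no hemin), hemin DMSO (vehicle, then 50 μM hemin for 24 h) and hemin nilotinib (0.1 μM nilotinib before and 50 μM hemin for 24 h). All are cultures of 1 cell line, so the spread between replicates covers cultures and handling and no other cells. Vehicle or nilotinib was given 24 h before hemin. The study's methods give collection at 0 and 24 h, which leaves the mock cells 24 h less of drug or vehicle. Its drawing of the design instead has all cells collected at the end. Hemin comparisons may therefore also hold a difference in time. Under the times of the methods, nilotinib effects with and without hemin would also differ in length of drug exposure.

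When unfolded proteins build up in the ER, the chaperone HSPA5 (BiP) is drawn away from the sensors. ERN1 (IRE1α) then splices XBP1 mRNA into the form that encodes the active factor, ATF6 is cut by Golgi proteases into an active fragment, and EIF2AK3 (PERK) slows translation and favours that of ATF4. XBP1 and ATF6 drive genes of folding, oxidation and degradation, many through the ER stress response element, and BiP itself is the most used readout of the response. Gene counts do not separate spliced from unspliced XBP1 and carry no information on protein or cleavage.

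Nilotinib lowered all 10 genes, both in cells that had no hemin and in cells that had it, while hemin given without nilotinib raised 5 of them and lowered 2. Of all genes tested, nilotinib lowered 21.8% without hemin and 31.7% with it, and hemin without nilotinib raised 25.7% and lowered 27.8%. Among the members, the rise with hemin was led by HERPUD1 (6.98-fold) and HSPA5 (5.34-fold). In the presence of nilotinib, hemin raised 1 member past the threshold, HSPA5, against 3.45% of all genes tested. This call depended on which libraries were used. Counts per library ranged from 33457078 to 50506990 reads. The 4 markers of K562 identity (GATA1, TAL1, LMO2 and HBG1) were detected in every group. Of 14 markers of T cells, B cells, monocytes, fibroblasts and epithelium, the summed level was 160 to 314 CPM in all libraries. The epithelial genes KRT19 (group means of 105 to 191 CPM) and EPCAM (32.6 to 63.1 CPM) were the highest in every group. Only the B cell gene MS4A1 was at 0 in a whole group, in 3 of the 4. In such bulk RNA, a change in the make-up of the culture and a change in RNA per cell cannot be told apart. Libraries are named by group and replicate number, and CPM are counts scaled to a common library size by the factors of the fit.

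Promoters of the members are shown because the element that ATF6 and XBP1 use was present in some and not in others. Whether its presence goes with the way a gene moved was not tested. RefSeq windows (GRCh38.p14, 250 bases before the start onwards) were found for all 10 members, XBP1 and PDIA4 with 2 each, and searched on both strands for 4 motifs. The ER stress response element (ERSE, here the letters CCAAT, then any 9 bases, then CCACG) was found in 5 members and in 27 of 35116 promoters (0.0769%). The related ERSE-II (ATTGG, any 1 base, then CCACG) was found in HERPUD1 and SDF2L1 and in 19 promoters (0.0541%). The core of the XBP1 element (TGACGTGG) was found in 0 members and 0.729% of promoters, and an ATF4 element (TTGCATCA) in HERPUD1 and 0.866% of promoters. No member's window held both ERSE and ERSE-II, and the windows of ERN1, ATF6 and PDIA4 held none of the 4, which says only that these letters are not there. The sequences below run 5′ to 3′ on the strand of the gene, with the element in capitals. It reads in the searched direction in HSPA5, XBP1, HERPUD1 and the upstream site of HSP90B1, and as its reverse complement in the others. For HSP90B1 a short stretch is given, because an annotated exon covers both sites.
HSPA5, chr9:125241351-125241449, minus strand: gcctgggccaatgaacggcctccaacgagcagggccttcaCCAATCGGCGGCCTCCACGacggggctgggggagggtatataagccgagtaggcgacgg
XBP1, chr22:28800598-28800661, minus strand: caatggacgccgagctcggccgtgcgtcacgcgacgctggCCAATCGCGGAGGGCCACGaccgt
HSP90B1, upstream site, chr12:103930211-103930239, plus strand: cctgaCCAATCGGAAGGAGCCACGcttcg
HSP90B1, downstream site, chr12:103930316-103930344, plus strand: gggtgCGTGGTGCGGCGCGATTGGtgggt
CALR, chr19:12938359-12938442, plus strand: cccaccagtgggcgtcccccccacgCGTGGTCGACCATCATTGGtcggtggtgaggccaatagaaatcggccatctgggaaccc
CRELD2, chr22:49918514-49918612, plus strand: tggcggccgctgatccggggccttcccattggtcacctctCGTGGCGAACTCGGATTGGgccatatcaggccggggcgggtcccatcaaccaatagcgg
HERPUD1 (ERSE-II), chr16:56931985-56932047, plus strand: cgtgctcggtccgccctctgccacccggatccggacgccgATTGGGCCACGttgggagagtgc
SDF2L1 (ERSE-II), chr22:21642074-21642164, plus strand: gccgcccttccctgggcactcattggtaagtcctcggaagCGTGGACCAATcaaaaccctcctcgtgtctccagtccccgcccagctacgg

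A first question was how abundant these transcripts were, which can be compared between genes only per gene length, here as mean FPKM ± SD over 3 libraries. FPKM are fragments per kilobase of gene, as scaled between libraries by the authors, which was not by total count alone. In mock DMSO the levels ran from CALR (341 ± 81.0 FPKM), a calcium-binding lectin chaperone, down to CRELD2 (4.34 ± 0.116 FPKM), a luminal cysteine-rich protein that is induced and secreted under ER stress. HSPA5 (246 ± 28.1 FPKM), SDF2L1 (213 ± 8.02 FPKM) and HSP90B1 (187 ± 21.0 FPKM) lay under CALR. The libraries of CALR and HSPA5 overlapped, as did those of HSPA5 and SDF2L1, while HSP90B1 lay just below SDF2L1 in all 3 libraries. The 2 sensors were scarce, ATF6 at 13.7 ± 1.08 FPKM and ERN1 at 7.21 ± 0.641 FPKM. In hemin DMSO the order changed. HSPA5 reached 1340 ± 198 FPKM and ranked 24th of all genes by mean FPKM, from 102nd in mock DMSO, 767th in mock nilotinib and 315th in hemin nilotinib. Of all counts in a library, the 10 genes together took 0.362 to 0.429% in mock DMSO, 0.113 to 0.153% in mock nilotinib, 0.874 to 0.948% in hemin DMSO and 0.122 to 0.216% in hemin nilotinib. HSPA5 on its own took 0.418 to 0.532% of the counts of a hemin DMSO library.

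**Figure D1:**
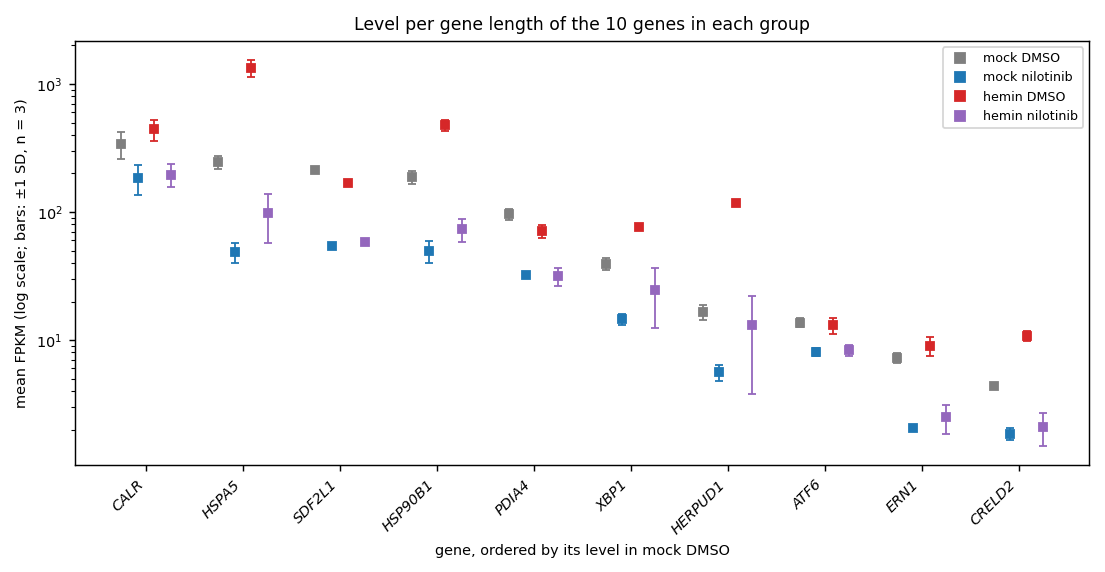
Mean level per gene length (FPKM, log scale, bars ±1 SD, n = 3) of the 10 genes in the 4 groups, ordered by the mock DMSO level. CALR led in mock DMSO at 341 FPKM, whereas HSPA5 led in hemin DMSO at 1340 FPKM.

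The sensors were examined next, in CPM. ERN1 (ENSG00000178607, 17:64039142-64130819, minus strand), the kinase and endonuclease that splices XBP1, stood at 74.8, 86.8 and 76.3 CPM in mock DMSO and at 22.7, 23.0 and 21.5 CPM in mock nilotinib. With hemin it was at 114, 93.6 and 82.9 CPM under DMSO and at 19.3, 30.8 and 32.9 CPM under nilotinib. Every nilotinib library was below every DMSO library, and within a drug the mock and hemin libraries overlapped. By the quasi-likelihood test of edgeR, adjusted after Benjamini and Hochberg over all genes tested, nilotinib lowered ERN1 3.54-fold without hemin (log2 fold change −1.82, SE 0.176, adjusted p = 3.96e-07) and 3.49-fold with it (−1.80, SE 0.176, adjusted p = 1.78e-07). Hemin changed it by 0.29 on the log2 scale without nilotinib (SE 0.170), which missed the threshold (adjusted p = 0.166). ATF6 (ENSG00000118217, 1:161766294-161964070, plus strand), the membrane-bound factor that Golgi proteases release, read 100, 115 and 112 CPM in mock DMSO, 66.8, 66.9 and 59.7 CPM in mock nilotinib, 103, 114 and 88.6 CPM in hemin DMSO and 73.1, 67.4 and 60.9 CPM in hemin nilotinib. Its libraries again separated by nilotinib and overlapped between mock and hemin. The nilotinib change of ATF6 was the smallest of the 10, at −0.76 without hemin (SE 0.127, adjusted p = 0.000128) and −0.60 with hemin (SE 0.126, adjusted p = 0.000555). Hemin moved ATF6 by −0.10 on the log2 scale (SE 0.126, adjusted p = 0.515). When the library sizes were not corrected for composition, this value was −0.35 with an adjusted p of 0.0134, against a median over all genes of −0.29.

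XBP1 (ENSG00000100219, 22:28794555-28800597, minus strand) encodes the leucine-zipper factor made from the mRNA that ERN1 splices. Its total level was 108, 134 and 121 CPM in mock DMSO, 40.7, 44.2 and 49.3 CPM in mock nilotinib, 221, 221 and 245 CPM in hemin DMSO, and 33.9, 85.8 and 108 CPM in hemin nilotinib. All hemin DMSO libraries were above all others, and hemin nilotinib replicate 1 was below every mock nilotinib library while the other two were above. Hemin nilotinib replicate 3 (107.7 CPM) came level with mock DMSO replicate 1 (107.8 CPM). Nilotinib lowered XBP1 2.71-fold without hemin (log2 −1.44, SE 0.289, adjusted p = 0.00122, edgeR) and 3.02-fold with it (−1.59, SE 0.289, adjusted p = 0.000288). Hemin raised it 1.89-fold without nilotinib (0.92, SE 0.284, adjusted p = 0.0144). This call was lost without mock DMSO replicate 1 (0.77, adjusted p = 0.0609) and without composition factors (0.68, adjusted p = 0.0624).

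HSPA5 (ENSG00000044574, 9:125234853-125241330, minus strand) encodes BiP, the HSP70 chaperone of the ER lumen. It read 852, 1043 and 1021 CPM in mock DMSO, 159, 191 and 226 CPM in mock nilotinib, 5891, 5248 and 4438 CPM in hemin DMSO and 210, 435 and 533 CPM in hemin nilotinib. The 3 hemin DMSO libraries stood far above the rest, and hemin nilotinib overlapped mock nilotinib through its replicate 1. Hemin raised HSPA5 5.34-fold without nilotinib (log2 2.42, SE 0.262, adjusted p = 1.66e-06, edgeR). Nilotinib lowered it 5.06-fold without hemin (−2.34, SE 0.261, adjusted p = 2.67e-06) and 13.2-fold with hemin (−3.72, SE 0.277, adjusted p = 1.29e-08). The nilotinib effects differed by −1.38 on the log2 scale (SE 0.353, interaction adjusted p = 0.00807), so the drop was 2.61-fold larger with hemin.

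HSP90B1 (ENSG00000166598, 12:103930107-103953645, plus strand) encodes GRP94, the HSP90 of the ER. Its levels were 784, 904 and 973 CPM in mock DMSO, 195, 228 and 287 CPM in mock nilotinib, 2122, 2459 and 2112 CPM in hemin DMSO and 266, 400 and 390 CPM in hemin nilotinib. The order of groups was that of HSPA5, with no overlap except between the nilotinib groups. Hemin raised it 2.52-fold (log2 1.33, SE 0.178, adjusted p = 1.13e-05, edgeR), and nilotinib lowered it 3.74-fold without hemin (−1.90, SE 0.181, adjusted p = 3.39e-07) and 6.34-fold with it (−2.66, SE 0.187, adjusted p = 4.12e-09). The difference between these drops was −0.76 (SE 0.248, interaction adjusted p = 0.0295). It missed the threshold when hemin DMSO 2, hemin nilotinib 1, mock DMSO 1 or 2, or mock nilotinib 2 or 3 was left out, and without composition factors, where it was −0.54 with an adjusted p of 0.0834. Other genes overlap 2.79% of its exon length on the same strand and 4.81% on the opposite strand, and the sources used here do not say whether counting used strand.

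HERPUD1 (ENSG00000051108, 16:56932048-56944863, plus strand), a membrane protein that helps to assemble the degradation complex, had the largest hemin response among the members and the widest spread. It was at 75.4, 95.9 and 87.6 CPM in mock DMSO, 25.1, 29.3 and 33.4 CPM in mock nilotinib, 625, 571 and 611 CPM in hemin DMSO, and 16.8, 74.8 and 115 CPM in hemin nilotinib. Hemin DMSO was tight and clear of all other groups, whereas hemin nilotinib spanned both mock groups. Hemin raised HERPUD1 6.98-fold (log2 2.80, SE 0.517, adjusted p = 0.00107, edgeR), and nilotinib lowered it 8.74-fold in the presence of hemin (−3.13, SE 0.524, adjusted p = 0.000417). Without hemin nilotinib lowered it 2.95-fold (−1.56, SE 0.499, adjusted p = 0.0287). The last call was lost without mock DMSO 2 or 3 or any of the mock nilotinib libraries, where the adjusted p was 0.0638 to 0.0963 and the change −1.69 to −1.46, and with the filter on low counts dropped (−1.59, adjusted p = 0.0830). Over all alternatives its adjusted p ran from 5.92e-07 to 0.0963, and the libraries of the 2 mock groups did not overlap. The SE pools the spread of all 12 libraries, so the wide hemin nilotinib group, not compared here, enters it too. The nilotinib effects with and without hemin differed by −1.57 (SE 0.692), which missed the threshold (adjusted p = 0.115). Without hemin nilotinib replicate 1 this difference was −1.09 and passed it (adjusted p = 0.00137), and without replicate 3 of that group it was −2.12 (adjusted p = 0.0345). It also passed in limma-trend on log2(FPKM + 1) (−1.98, adjusted p = 0.0329) and on log2(FPKM + 0.1) (adjusted p = 0.0436).

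CRELD2 (ENSG00000184164, 22:49918167-49927540, plus strand), low in abundance, followed the same order of groups. It read 23.2, 21.8 and 23.0 CPM in mock DMSO, 10.4, 8.40 and 10.3 CPM in mock nilotinib, 60.7, 51.6 and 53.2 CPM in hemin DMSO and 8.34, 10.1 and 14.8 CPM in hemin nilotinib. Only the nilotinib groups overlapped. Hemin raised CRELD2 2.43-fold (log2 1.28, SE 0.179, adjusted p = 1.76e-05, edgeR), and nilotinib lowered it 2.34-fold without hemin (−1.23, SE 0.182, adjusted p = 4.25e-05) and 4.96-fold with it (−2.31, SE 0.186, adjusted p = 2.10e-08). These drops differed by −1.08 (SE 0.254, interaction adjusted p = 0.00457). On the opposite strand, ALG12 overlaps 3.25% of the exon length of CRELD2.

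CALR (ENSG00000179218, 19:12938578-12944489, plus strand), the lectin chaperone calreticulin, was at 727, 915 and 1165 CPM in mock DMSO, 375, 497 and 637 CPM in mock nilotinib, 947, 1381 and 1246 CPM in hemin DMSO and 424, 553 and 656 CPM in hemin nilotinib. Nilotinib libraries lay below DMSO libraries in both hemin states, and mock and hemin libraries overlapped. Nilotinib lowered it 1.86-fold without hemin (log2 −0.90, SE 0.220, adjusted p = 0.00344, edgeR) and 2.19-fold with it (−1.13, SE 0.221, adjusted p = 0.000291). The hemin change of 0.35 (SE 0.218) missed the threshold (adjusted p = 0.190). With the replicate number as a block it was 0.36 and passed (adjusted p = 0.0240), but the numbers were not taken to pair those groups. The correlation used for that decision missed its loose cutoff of 0.1 in replicate 1 only (0.0948). A gene on the opposite strand, AC092069.1, overlaps 9.95% of the exon length of CALR.

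SDF2L1 and PDIA4 went the other way with hemin. SDF2L1 (ENSG00000128228, 22:21642261-21644298, plus strand), a cofactor of the BiP cycle, was at 231, 232 and 246 CPM in mock DMSO, 60.2, 61.0 and 60.5 CPM in mock nilotinib, 187, 174 and 190 CPM in hemin DMSO and 66.7, 64.3 and 66.2 CPM in hemin nilotinib. All 4 groups were separate from one another, with mock DMSO on top. Hemin lowered SDF2L1 1.29-fold without nilotinib (log2 −0.37, SE 0.106, adjusted p = 0.00794, edgeR), and nilotinib lowered it 3.91-fold without hemin (−1.97, SE 0.110, adjusted p = 9.77e-10) and 2.79-fold with it (−1.48, SE 0.108, adjusted p = 6.78e-09). The drop was therefore smaller with hemin, by 0.48 (SE 0.150, interaction adjusted p = 0.0227). This difference missed the threshold when the filter on low counts was dropped (0.55, adjusted p = 0.0511).

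PDIA4 (ENSG00000155660, 7:149003062-149028641, minus strand), a protein disulfide isomerase, was at 287, 334 and 337 CPM in mock DMSO, 103, 106 and 110 CPM in mock nilotinib, 230, 257 and 206 CPM in hemin DMSO and 122, 105 and 90.2 CPM in hemin nilotinib. Mock DMSO was highest and clear of hemin DMSO, and the nilotinib groups overlapped. Hemin lowered PDIA4 1.38-fold (log2 −0.47, SE 0.134, adjusted p = 0.00763, edgeR), a call lost without hemin DMSO replicate 3 (−0.38, adjusted p = 0.0509). Nilotinib lowered it 3.0-fold without hemin (−1.59, SE 0.137, adjusted p = 1.15e-07) and 2.19-fold with it (−1.13, SE 0.136, adjusted p = 1.92e-06). The difference of 0.46 between these drops missed the threshold (SE 0.190, adjusted p = 0.0790). It passed without hemin DMSO 2 (0.53, adjusted p = 0.0445), hemin nilotinib 3 (0.60, adjusted p = 0.0228) or mock DMSO 1 (0.61, adjusted p = 0.0442), and without composition factors (0.66, adjusted p = 0.00477).

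Set side by side, nilotinib lowered 10 of 10 genes in the presence of hemin, where 31.7% of all genes tested were called lower, and 10 of 10 without hemin, where 21.8% were. Libraries did not overlap for any of the 10 in either comparison, against 32.0% and 31.1% of genes lower without overlap. The median log2 change of the members was −1.70 with hemin and −1.57 without, beside 0.02 and 0.00 for all genes. As the members were chosen with earlier results of these data known, the values of all genes give a scale and not a test. All 10 calls with hemin held in each of the 6 fits that left out a library. The K562 identity markers moved with the same groups in the opposite direction. Their summed level was 560 to 933 CPM in DMSO libraries and 2331 to 3654 CPM in nilotinib libraries. HBG1 was the highest of them in mock nilotinib (1639 CPM) and hemin nilotinib (1841 CPM). With nilotinib, 4 of 4 rose in the presence of hemin, where 32.4% of all genes were called higher. Without hemin 3 of 4 rose, where 20.6% were, and GATA1 missed the threshold (adjusted p = 0.0532, edgeR). The part of these markers in the fall of the members was not tested. Of 12 markers of other cell types that were tested, 7 fell with nilotinib in the presence of hemin, 4 fell and 1 rose without hemin, and their summed level was 208 to 314 CPM in DMSO libraries and 160 to 301 CPM in nilotinib libraries.

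For hemin without nilotinib, 5 members were higher (25.7% of all genes tested) and 2 lower (27.8% of all genes). The 5 were HSPA5, HSP90B1, XBP1, HERPUD1 and CRELD2, each without overlap between libraries (29.8% of genes were higher without overlap), and the 2 were SDF2L1 and PDIA4, also without overlap (32.9%). The member median was 0.63 on the log2 scale and that of all genes −0.05. Without composition factors the median of all genes moved to −0.29, and the share of called genes that were higher fell from 48.0% to 33.9%. Both SDF2L1 (−0.60) and PDIA4 (−0.71) stayed below that median. In this comparison 1 of 4 K562 identity markers rose and 3 fell, and 5 of the 12 other markers tested rose and 1 fell.

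**Figure D2:**
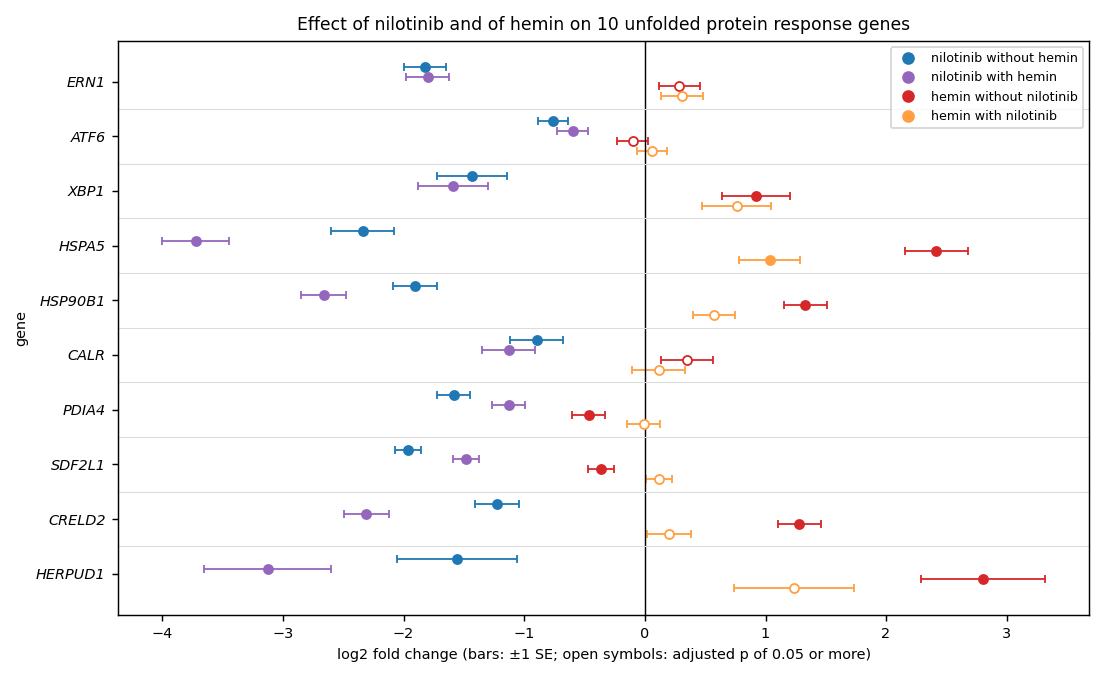
Log2 fold change (±1 SE) of the 10 genes for nilotinib without and with hemin and for hemin without and with nilotinib; filled symbols have an adjusted p under 0.05 (edgeR). Both nilotinib effects are below 0 and filled for all 10, hemin without nilotinib is filled for 7, and hemin with nilotinib for HSPA5, at 1.03.

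In nilotinib-treated cells, HSPA5 was 2.05-fold higher (log2 1.03, SE 0.251, adjusted p = 0.0259, edgeR) and was the 1 member called, where 3.45% of all genes were called higher. With the replicate number as a block, which pairs these groups, 2 members were called, the second being HSP90B1 (0.57, adjusted p = 0.0244; 0.0654 without the block). SDF2L1 was the 1 gene whose libraries did not overlap (11.7% of genes were higher without overlap), at a change of 0.12 that missed the threshold (SE 0.106, adjusted p = 0.563). HERPUD1 (1.23, SE 0.496, adjusted p = 0.183), XBP1 (0.76, SE 0.286, adjusted p = 0.139) and CRELD2 (0.20, SE 0.182, adjusted p = 0.574) also missed it. The outcome turned on single libraries. Without hemin nilotinib replicate 1, 5 members were called higher: HSPA5, HERPUD1 (1.69), XBP1 (1.11), HSP90B1 (0.74) and ERN1 (0.51). In that fit 8.22% of 21850 genes were called higher. Without hemin nilotinib 2 or 3, or mock nilotinib 1, 2 or 3, the call of HSPA5 was lost, at 0.74 to 1.14 with an adjusted p of 0.0641 to 0.112. Hemin nilotinib replicates 1 and 3 had the lowest correlation of log2 CPM of any pair of replicates (r = 0.969), and the others reached 0.992.

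The interaction, which asks whether nilotinib acted differently with and without hemin, was called for 4 of the 10, where 30.1% of all genes were called (17.1% above and 13.1% below 0). It was below 0 for HSPA5, HSP90B1 and CRELD2 and above 0 for SDF2L1. Under the collection times of the methods, hemin and 24 h more of nilotinib cannot be told apart in this difference. For ERN1 the difference was 0.02 (SE 0.242, adjusted p = 0.960) and for XBP1 −0.16 (SE 0.400, adjusted p = 0.804), which shows neither a difference nor equal effects at this spread. The comparisons share groups, so their values are not independent of one another.

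Across the 12 libraries all 45 pairs of members had a positive Pearson correlation of log2 CPM, with a median of 0.884. It was lowest for HERPUD1 with PDIA4 (0.524) and highest for HSPA5 with HSP90B1 (0.989). These points share their groups and scaling, so the values describe the 4 groups more than the spread within them. Of 12495 genes with a mean of at least 100 counts, those most like HSPA5 by this measure were CALU (0.992), a calcium-binding protein of the secretory pathway, the amino acid transporter SLC38A2 (0.992) and GFPT1 (0.991), the entry enzyme of hexosamine synthesis. HSP90B1 ranked sixth. Those most like ERN1 were S100P (0.994), the stress-inducible NUPR1 (0.990) and the pseudokinase TRIB3 (0.989), and no member was among its closest 10.

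The pathway around the members was followed in 7 lists with 108 other genes, of which 107 were tested. Nilotinib lowered 72 and raised 9 in the presence of hemin (median log2 −0.75), and lowered 61 and raised 5 without hemin (median −0.60). Hemin without nilotinib raised 42 and lowered 19 (median 0.27). With nilotinib, hemin raised 8 and lowered 2, and without hemin nilotinib replicate 1, an alternative chosen after seeing the data, it raised 29 and lowered 4, where 8.22% of all genes in that fit were called higher and 4.78% lower. Among all genes tested, nilotinib lowered 31.7% and raised 32.4% with hemin, and lowered 21.8% and raised 20.6% without it. Hemin raised 25.7% and lowered 27.8% without nilotinib, and raised 3.45% and lowered 2.3% with it.

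**Figure D3:**
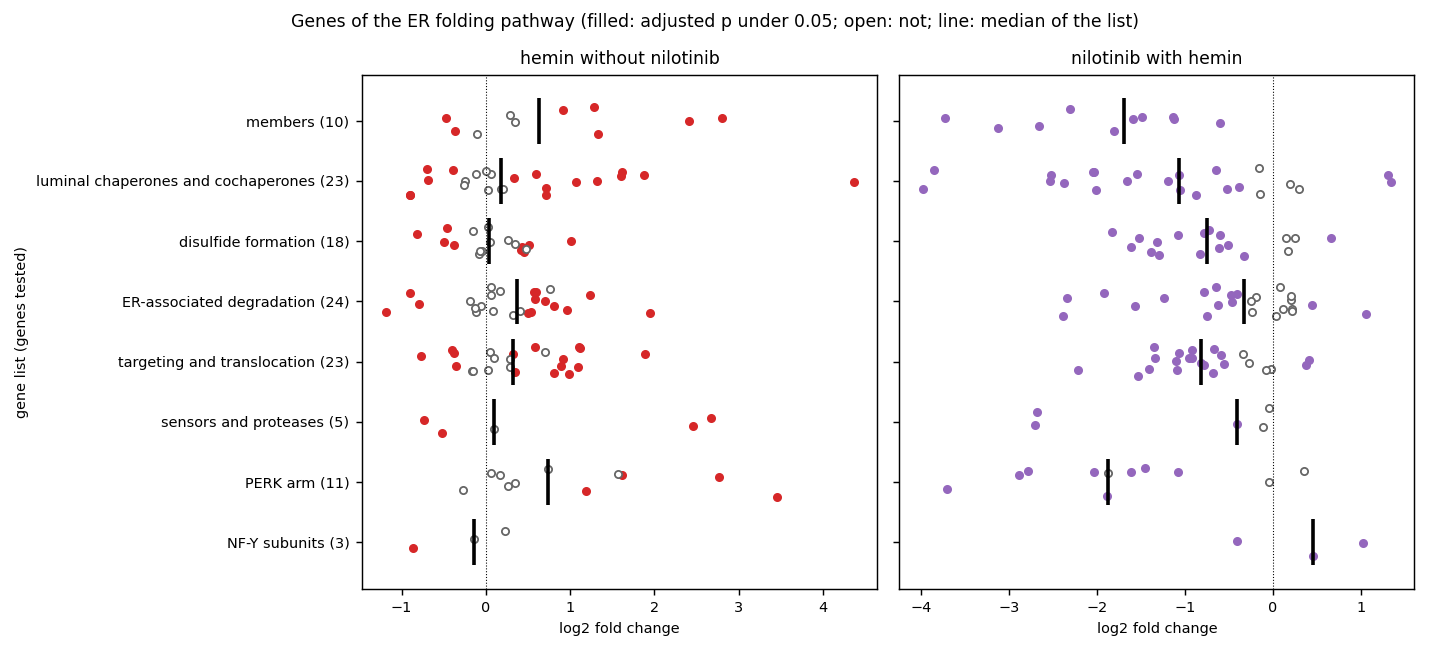
Log2 fold change of the 10 members and of 107 other genes of the ER folding pathway by list, for hemin without nilotinib (left) and nilotinib with hemin (right); filled points have an adjusted p under 0.05 and bars are list medians. Under nilotinib with hemin the medians are below 0 in every list but the NF-Y subunits, and under hemin they are lowest for the NF-Y subunits (−0.14) and highest for the PERK arm (0.73).

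Of 23 luminal chaperones and cochaperones, nilotinib lowered 17 and raised 2 with hemin, against 31.7% and 32.4% of all genes. Without hemin it lowered 16 and raised 1, against 21.8% and 20.6%. MANF, a small ER protein released under stress, fell most in both, from 108 ± 22.4 to 6.81 ± 1.70 CPM with hemin (log2 −3.98, SE 0.208, adjusted p = 1.59e-10, edgeR) and from 35.2 ± 4.23 to 6.35 ± 0.702 CPM without (−2.47, SE 0.197, adjusted p = 4.38e-08). UGGT1, the glucosyltransferase that senses misfolded glycoproteins, rose most with nilotinib, by 1.34 with hemin and 0.58 without. Hemin alone raised 10 of the list and lowered 5, against 25.7% and 27.8% of all genes. SERPINH1, the collagen chaperone HSP47, went from 272 ± 28.9 to 5625 ± 987 CPM with hemin (4.37, SE 0.407, adjusted p = 1.73e-06), the largest rise in the lists, and FKBP11 fell most (−0.90). The BiP cochaperone DNAJC3 was the 1 chaperone of this list that hemin raised under nilotinib (0.50, adjusted p = 0.0375).

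Of 18 tested genes of disulfide formation, nilotinib lowered 14 with hemin and 10 without, against 31.7% and 21.8% of all genes. It raised 1 in each, against 32.4% and 20.6%. TXNDC12, a thioredoxin-like oxidase, fell most on the log2 scale (−1.83 with hemin and −2.06 without), while TMX4 (0.66, with hemin) and QSOX1 (0.57, without) rose. Hemin alone raised 5, led by the retention chaperone ERP44 (1.01), and lowered 4, led by TMX4 (−0.82). Both counts lay near the shares of all genes, 25.7% raised and 27.8% lowered. Of 24 genes of ER-associated degradation, nilotinib lowered 12 and raised 2 with hemin, and lowered 9 and raised 2 without. SEL1L, the adaptor of the HRD1 ligase, fell most with hemin (−2.39), and the mannosidase-like EDEM1 without it (−1.95). Hemin raised 10 of them, led by UFD1, a cofactor of the VCP segregase (1.95), and lowered 3, led by the conjugating enzyme UBE2G2 (−1.19).

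For the next lists, nilotinib lowered 31.7% of all genes with hemin and 21.8% without, and hemin raised 25.7% and lowered 27.8%. Of 23 genes of targeting and translocation, nilotinib lowered 17 in each hemin state and raised 2 with hemin and 1 without. The falls were led by the signal peptidase subunit SEC11C (−2.22 with hemin and −1.51 without). Hemin raised 11, led by SRP19 of the signal recognition particle (1.89), and lowered 4, led by SPCS3 (−0.77). Among the 5 other sensors and proteases, EIF2AK3 (PERK) rose with hemin from 17.8 ± 0.324 to 114 ± 11.8 CPM (2.68, SE 0.170, adjusted p = 6.47e-09, edgeR) and was at 17.4 ± 4.03 CPM when nilotinib was present (−2.70 against hemin DMSO, SE 0.171, adjusted p = 1.31e-09). MBTPS1, the Golgi protease that cuts ATF6, fell with hemin (−0.73) and with nilotinib without hemin (−0.84). In the list here called the PERK arm, of 11 genes, nilotinib lowered 8 with hemin and 6 without, and hemin raised 4. The name is that of the list, and whether PERK or another input moved these genes was not tested. ATF3, a stress-induced transcription factor, rose with hemin from 35.8 ± 5.02 to 392 ± 5.52 CPM (3.45, SE 0.461, adjusted p = 9.87e-05), and CHAC1, which degrades glutathione, fell with nilotinib without hemin from 47.0 ± 6.89 to 2.69 ± 1.26 CPM (−4.11, SE 0.987, adjusted p = 0.00869). Of the 3 NF-Y subunits, which bind the CCAAT part of the ERSE, nilotinib moved each by 0.15 or less on the log2 scale without hemin. NFYA fell with hemin (−0.86) and rose with nilotinib in its presence (1.02).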

How the data were processed

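RNA-seq counts of 12 K562 libraries (150 bp paired-end reads) were analysed. The authors deposited raw read counts per gene, and FPKM that share the scaling of all libraries. Build GRCh38.p12 and the tools DESeq2 and DESeq are named in the submitters' processing notes; the aligner, counter and strand setting are not given in the sources used here. Gene positions and exon overlaps came from GENCODE 29, and promoters from RefSeq (GRCh38.p14). The members and lists were chosen with earlier results of these data known, and pathway genes were named as those with the largest called rise and fall per list and comparison among genes with a mean of at least 100 counts.

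The fit used edgeR 4.0.16 under R 4.3.3 (filterByExpr minimum count 10 and minimum total 15, TMM, robust quasi-likelihood, 1 mean per group over 12 libraries). Tests were two-sided, with a Benjamini-Hochberg adjusted p under 0.05 over 20821 genes. The biological coefficient of variation was 0.198. Replicates differed by more than counting noise in every pair. The procedure was tested on simulated data.

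Alternatives were DESeq2 1.42.0, RLE or no composition factors, other count minimums, a 2-fold minimum, limma-trend (limma 3.58.1) on log2(FPKM + 1) and log2(FPKM + 0.1), the compared libraries alone, the replicate block and each library left out. Deviations of same-numbered libraries (r) were 0.424 to 0.451 between the nilotinib groups and 0.154 to 0.198 between the mock groups. As these were above 0.1 in all 3 pairs, the numbers were taken to pair these groups, and the other compared groups were not paired. This cutoff is a loose guide. Hemin DMSO with mock DMSO missed it only in replicate 1 (0.0948), and mock DMSO with hemin nilotinib, which were not compared, had −0.103 and −0.0832 in replicates 1 and 3. Hemin DMSO with mock nilotinib, also not compared, was above it in all 3 (0.127 to 0.199). Markers were checked as lists, and 1 marker of the cell line is not reported here. The deposited table of mean FPKM per group was not used, and group means were computed from the FPKM of each library.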

Additional observations from a re-analysis of the deposited data

Results flagged for a closer look

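For 4 of the 10 genes the nilotinib effect differed between cells with and without hemin by the test of that difference (edgeR interaction, adjusted p under 0.05), where 30.1% of all genes tested were called. The difference was −1.38 on the log2 scale for HSPA5, −0.76 for HSP90B1 and −1.08 for CRELD2, where the fall was larger with hemin, and 0.48 for SDF2L1, where it was smaller. By the collection times of the methods, a longer time in nilotinib could not be told apart from hemin here. The adjusted p over the alternatives was 4.84e-08 to 0.0259 for HSPA5, 0.000181 to 0.0254 for CRELD2, 0.00757 to 0.110 for HSP90B1 and 0.00276 to 0.0511 for SDF2L1.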

How the results depend on the processing

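The fall of the members with nilotinib kept its direction in every alternative, with 9 to 10 members called with hemin and 8 to 10 without. Genes called in either direction were 8923 to 15010 with hemin and 4851 to 11128 without, and the number tested differed between fits. Hemin without nilotinib called 4 to 9 members and 6463 to 12617 genes. The interaction called 2 to 6 members and 4054 to 6884 genes, where 30.1% of all genes were called in the main fit. Under a 2-fold minimum, 4 members were called for hemin without nilotinib and 2 for the interaction, and the genes called were 6463 for hemin without nilotinib, 4054 for the interaction and 4851 for nilotinib without hemin. Hemin with nilotinib was the least stable. Against 1 member and 1197 genes, DESeq2 called 2 and 1974, all genes with at least 1 count 3 and 1908, log2(FPKM + 1) 0 and 741, log2(FPKM + 0.1) 0 and 694, and the compared libraries alone 0 and 180. A 2-fold minimum called 548 genes. Leaving out a library gave 0 to 5 members and 185 to 2839 genes. The cause was not tested. The replicate block called 2 members for hemin with nilotinib, also in the compared libraries alone, and in groups the numbers pair it changed no other member's call. Where they do not, it added CALR under hemin (0.36) and, in the compared libraries alone, CALR (0.40) and ERN1 (0.32).

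Values near 0 changed sign, here as ranges over fits that left out a library. For ERN1 the interaction was −0.0932 to 0.238, and −0.0343 with DESeq2, −0.0341 with RLE factors, −0.0896 with log2(FPKM + 1) and −0.0579 with log2(FPKM + 0.1). For XBP1 it was −0.457 to 0.21, and 0.0613 without composition factors. Under hemin with nilotinib the ranges were −0.0165 to 0.117 for ATF6, −0.061 to 0.292 for CALR, −0.079 to 0.363 for CRELD2 and −0.125 to 0.0849 for PDIA4, which was 0.0133 with at least 10 counts in every library. ATF6 under hemin without nilotinib was −0.229 to 0.00377.

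Without composition factors the median of all genes was 0.20 for nilotinib with hemin and 0.27 for the interaction, and the share of called genes that were higher moved from 59.98% to 48.9% for hemin with nilotinib and from 56.7% to 73.2% for the interaction.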

Other observations

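Outside the members, ERSE or ERSE-II occurred in promoters of 37 other gene symbols, of which 30 matched 1 gene of the count table and 24 were tested. CANX, HYOU1, PDIA6 and ERO1B among them were already counted in the pathway lists, so the 24 are not separate from those. Some of the 24 had few counts, such as FRG2 (mean 8.75). Nilotinib with hemin lowered 20 of the 24 and raised 3 (median log2 −1.16), nilotinib without hemin lowered 11 and raised 2 (median −0.61), and hemin without nilotinib raised 12 and lowered 2 (median 0.54). Of all genes tested, 31.7% were lower and 32.4% higher in the first of these comparisons (median 0.02), 21.8% and 20.6% in the second (median 0.00), and in the last 25.7% were higher and 27.8% lower (median −0.05). For hemin with nilotinib their median was 0.08, with values from −0.86 to 2.03. The genes named next were picked after their values were seen. ZNF143, a zinc finger transcription factor, was at a log2 change of 2.18 with hemin (adjusted p = 5.11e-08, edgeR) and of −2.11 with nilotinib in its presence (adjusted p = 2.69e-08). NUCB1, a calcium-binding protein of the Golgi, was at 1.04 and −1.74 in the same comparisons. SERP1, a protein of the translocon, was at 0.95 and −1.08, and RUVBL2, an ATPase of chromatin remodelling complexes, at 0.68 and −1.68.

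ALG12, which overlaps CRELD2 on the opposite strand and has an ERSE in its own window, moved against it. ALG12 was counted among the other genes above. As both strands were searched, its ERSE may be the same site as that of CRELD2, which was not tested. ALG12 was at −1.22 with hemin (adjusted p = 2.07e-05, edgeR) and at 1.96 with nilotinib in the presence of hemin (adjusted p = 6.46e-08), while CRELD2 was at 1.28 and −2.31. Since strand use in counting is not stated, reads in the shared stretch cannot be told apart.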
